A study of Mus musculus with 2 samples.

Results

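The regulators of mitochondrial biogenesis were taken as a list of 10 genes, *Sirt1*, *Sirt3*, *Ppargc1a*, *Ppargc1b*, *Nrf1*, *Esrra*, *Tfam*, *Tfb1m*, *Tfb2m* and *Polrmt*. They come out of 20655 genes with a named probe on the array. The list was chosen with earlier results of these data known, so counts over it are not blind to the data. A probe was assigned to a gene through its RefSeq accession, and every probe of each gene was read. The 10 genes had 15 probes between them, each printed as 1 spot. Of these probes 14 were well above background on both arrays, so that all 10 genes were among the 16885 genes measured in both conditions.

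RAW264.7 is an established macrophage line from a tumor that Abelson leukemia virus induced in a male BALB/c mouse. To see how the small molecule IR-61, which targets macrophage mitochondria, alters gene expression, 1 culture received vehicle control and 1 culture received IR-61, both for 24 h, and the dose of 10 μM comes from a figure legend of the study. Each culture was read on its own single-colour (Cy3) Agilent mouse array, so there was 1 array per condition, no replicate error between cultures and no test between the conditions. The values therefore compare 2 arrays of 1 cell line, and a difference carried by all cells cannot be told apart from one carried by some of them.

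The nuclear genome encodes nearly all proteins of mitochondria, and a short chain of regulators sets how much of them is made. The coactivators PGC-1α (*Ppargc1a*) and PGC-1β (*Ppargc1b*) dock on transcription factors such as nuclear respiratory factor 1 (*Nrf1*) and estrogen-related receptor α (*Esrra*), which switch on genes of the respiratory chain and of the machinery that transcribes mitochondrial DNA. The NAD-dependent deacetylase SIRT1 acts on PGC-1α in the nucleus and SIRT3 acts on enzymes inside mitochondria, where the RNA polymerase POLRMT needs TFAM and TFB2M to start transcription. In macrophages PGC-1β is known for linking oxidative metabolism to alternative activation.

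The array measures RNA at probes whose sequences were not used here, and the promoters of these genes are the DNA to which regulators of the same chain bind. RefSeq promoter windows of the mouse assembly GRCm38.p6 covered 9 of the 10 genes with 11 windows. The 250 bases before each start site were searched on both strands for the letters of known binding motifs. The windows of the 3 genes that were higher by 1.5-fold or more with IR-61 are shown first, 5′ to 3′ on the strand of the gene, without the bases that an annotated transcript covers. Capitals mark TGCGCA (the core of the NRF1 site), CCGGAAG (the ETS motif of GABP), TGACG (the core of the CREB site) and CACGTG (an E-box), each on either strand.
*Sirt1*, chr10:63339036-63339285, minus strand: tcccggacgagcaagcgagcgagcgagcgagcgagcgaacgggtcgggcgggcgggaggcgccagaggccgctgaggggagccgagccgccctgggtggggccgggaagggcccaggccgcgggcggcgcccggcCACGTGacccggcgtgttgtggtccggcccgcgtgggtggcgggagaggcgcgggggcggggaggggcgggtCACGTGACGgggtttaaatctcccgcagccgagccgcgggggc
*Ppargc1a*, chr5:51567726-51567975, minus strand: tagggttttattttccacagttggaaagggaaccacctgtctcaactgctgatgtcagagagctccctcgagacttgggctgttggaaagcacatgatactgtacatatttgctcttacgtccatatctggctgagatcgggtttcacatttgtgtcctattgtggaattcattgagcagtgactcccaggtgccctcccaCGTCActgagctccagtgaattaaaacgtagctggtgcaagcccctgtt
*Tfb2m*, chr1:179546306-179546526, minus strand: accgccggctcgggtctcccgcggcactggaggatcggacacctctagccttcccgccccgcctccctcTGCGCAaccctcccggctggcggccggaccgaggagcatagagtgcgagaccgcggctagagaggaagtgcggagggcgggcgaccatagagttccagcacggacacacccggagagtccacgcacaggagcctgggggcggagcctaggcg

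*Sirt1* held CACGTG at positions −115 and −43 from the start site, and the second of these runs into a TGACG at −39. CACGTG stood in 6.02% of all 32851 promoter windows and in 1 of the 11 windows of the regulators. *Ppargc1a* held TGACG, read on the other strand, at −49. That motif was also found in the windows of *Sirt1*, *Sirt3* and *Tfb1m*, 4 of 11 against 17.8% of all windows. *Tfb2m* held TGCGCA at −181.

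TGCGCA and CCGGAAG, the letters bound by NRF1 and by GABP, were found in 3 windows each, against 6.43% and 6.91% of all windows. TGCGCA lay in the windows of *Tfb2m*, *Polrmt* and *Esrra*, and CCGGAAG in those of *Sirt3*, *Tfam* and *Polrmt*. *Polrmt* was the gene that had both. The surroundings of these matches, 30 bases each, are given so that the letters can be read in their context.
*Polrmt*, chr10:79746698-79746727, minus strand: gaagagtatttcTGCGCAtgctctcttgcc
*Esrra*, chr19:6921822-6921851, minus strand: ccctgttttgcaTGCGCAggccggccccgc
*Polrmt*, chr10:79746607-79746636, minus strand: accctaagagcgCTTCCGGcagtcgcagaa
*Tfam*, chr10:71238074-71238103, minus strand: tcctgccgcggaCCGGAAGtccgggcttcc
*Sirt3*, chr7:140882377-140882406, minus strand: agtgctcgctcaCTTCCGGcaccgcgggcg

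No motif was shared by the windows of *Sirt1*, *Ppargc1a* and *Tfb2m*. The GC box GGGCGG stood in 7 of the 11 windows and in 32.7% of all windows, and CCAAT stood in 2 and in 33.8%. No regulator window held the long NRF1 palindrome (3.74% of all windows), AAGGTCA (ERRα, 4.08%), TGACGTCA (the full CREB site, which contains TGACG, 1.55%), AAGATGGC (YY1, 1.56%) or GGGNNTTCC (NF-κB, 4.98%). A match is a run of letters and was not tested as a binding site, and a missing match says only that these letters are not in the window.

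Of the 16885 measured genes, those higher by 1.5-fold or more with IR-61 were 9.79% and those lower by as much were 5.69%. Among the 10 regulators 3 were higher by 1.5-fold or more (30%) and 0 were lower by as much. None passed 2-fold, which 1.99% of all measured genes passed upward and 1.39% downward. The 3 genes were *Ppargc1a*, *Tfb2m* and *Sirt1*. Smaller differences upward were found for *Sirt3*, *Esrra* and *Polrmt*, and differences downward for *Tfb1m*, *Tfam*, *Ppargc1b* and *Nrf1*. The median log2 difference, IR-61 minus vehicle, was 0.27 over the 10 regulators and 0.10 over all measured genes, for which the quartiles were −0.15 and 0.34. Both the regulators and all genes had an SD of 0.44 across genes. The study also measured *Sirt1*, *Ppargc1a*, *Nrf1* and *Tfam* mRNA in bone marrow-derived macrophages, which are other cells than these. There it reports similar levels with IR-61 and with vehicle. In those cells it also found no significant change in mitochondrial mass, mitochondrial DNA or citrate synthase activity. It concluded that biogenesis did not account for the effect of IR-61 on mitochondrial function. The mRNA of the respiratory chain subunits it measured was higher with IR-61.

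**Figure D1:**
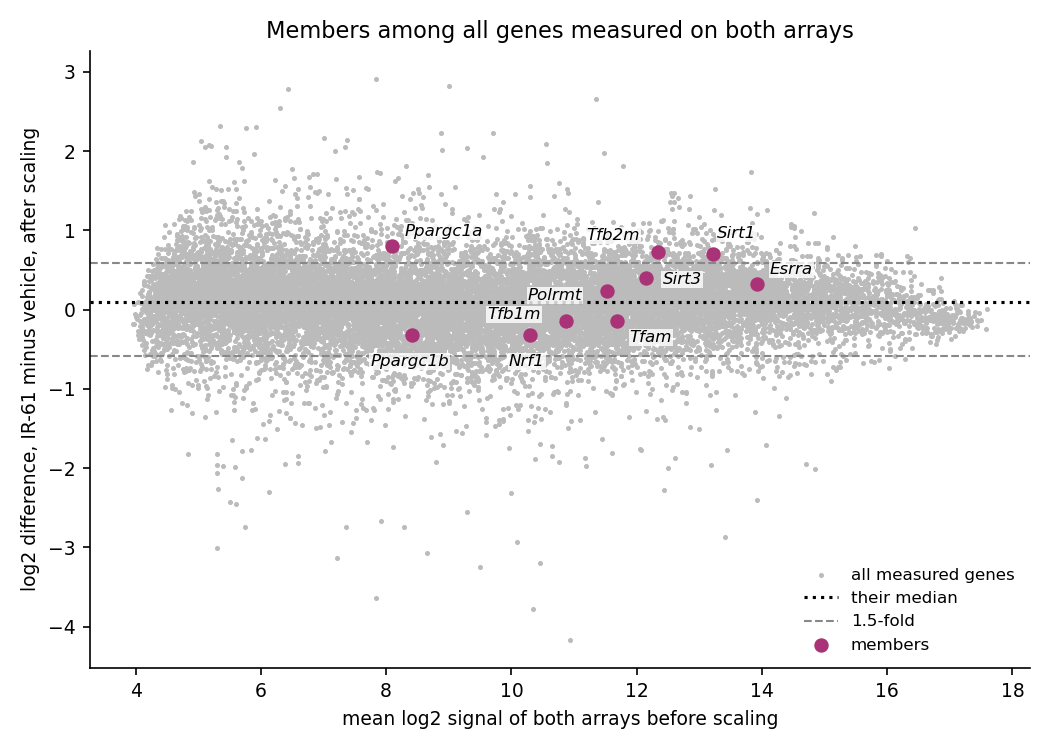
Log2 difference between IR-61 and vehicle after scaling (vertical axis) against the mean log2 signal of both arrays (horizontal axis) for all 16885 measured genes in grey and the 10 regulators as large points with names. The dotted line is the median of all measured genes at 0.10 and the dashed lines mark 1.5-fold, above which *Ppargc1a*, *Tfb2m* and *Sirt1* lie.

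Before scaling, the spots of all 10 regulators, at the brightest probe of each, were brighter on the IR-61 array. The whole IR-61 array was brighter, with a 75th percentile of 10.79 on the log2 scale against 10.30 for vehicle, and each array was therefore scaled by its own 75th percentile. After scaling 6 of the 10 stayed higher with IR-61 and 4 turned lower. The median log2 difference of all measured genes was 0.59 before scaling and 0.10 after it, and the share of them above 0 was not counted. The same 6 regulators lay above the median of all measured genes and the same 4 below it.

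**Figure D2:**
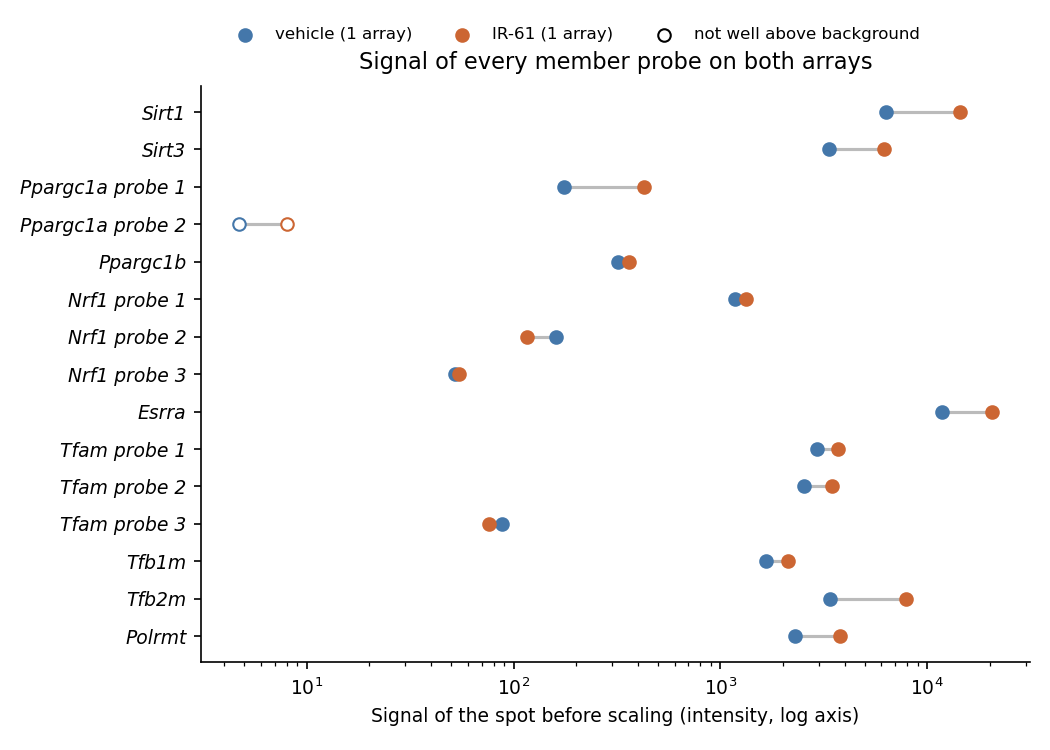
Signal of the spot before scaling (intensity, log axis) of all 15 probes of the 10 regulators on the vehicle array (blue) and on the IR-61 array (orange), with open circles for the *Ppargc1a* probe that was not well above background. IR-61 is to the right of vehicle for the brightest probe of each gene, and to its left at the second *Nrf1* probe (160 and 116) and the third *Tfam* probe (87.4 and 75.7).

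The noise behind each difference was read from probes printed many times on the same array. For a probe with 1 spot per array, the SD of a log2 difference expected from this spread ran from 0.093 for bright probes to 0.26 for *Ppargc1a*, at the brightest probe of each gene. All 10 regulators differed by more than 1 such SD and 7 by more than 2. The error that the scanner software attached to each spot was larger for the bright probes, about 10.0% of the signal, which gives an SD of 0.20 for a log2 difference. Of the regulators 8 exceeded it, and *Tfam* and *Tfb1m* did not. Neither measure contains the variation between cultures. How many of all measured genes pass these SDs was not counted, so the counts do not set the regulators apart. The differences of all measured genes had an SD of 0.44 across genes, wider than either measure of noise. Gaps between 2 regulators are set below against the SD from spots, which leaves out the software error of 0.20 to 0.21 for each difference.

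SIRT1 removes acetyl groups from PGC-1α and from many other nuclear proteins. The signal of *Sirt1* was 6304 with vehicle and 14325 with IR-61. On the scaled log2 scale, where 0 is the 75th percentile of the array, the levels were 2.32 and 3.02. *Sirt1* was thus higher by 0.70 on the log2 scale, or 1.62-fold, with an SD from spots of 0.093. The difference was above those of 93.7% of all measured genes and above those of 95.3% of the 1000 genes nearest to it in signal.

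*Sirt3*, which encodes the main deacetylase of the mitochondrial matrix, gave a signal of 3335 with vehicle and of 6159 with IR-61. The scaled levels were 1.40 and 1.80, a difference of 0.40 or 1.32-fold, with an SD from spots of 0.10. This lies above 79.9% of all measured genes, yet under the 1.5-fold limit. The difference of *Sirt1* exceeded that of *Sirt3* by 0.30, against an SD from spots of 0.14 for such a contrast. By the software error, the SD was 0.20 for each of the 2 differences alone.

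PGC-1α is induced by cold, exercise and fasting in muscle, brown fat and liver and is scarce in most resting cells. The brightest *Ppargc1a* probe had a signal of 175 with vehicle and of 428 with IR-61, on arrays where the lowest signal above background was 12.8 and 16.3. The scaled levels were −2.85 and −2.05. The difference of 0.80, or 1.74-fold, was the largest among the regulators and lay above 95.8% of all measured genes. With normexp, another background correction, it was 0.53, below *Tfb2m* at 0.74 and *Sirt1* at 0.65. As this probe was dim with vehicle, its SD from spots was 0.26. The second *Ppargc1a* probe, at 4.69 and 8.04, was not well above background on either array and gave no fold.

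PGC-1β shares much of the protein structure and many of the targets of PGC-1α. The single *Ppargc1b* probe gave 321 with vehicle and 361 with IR-61, and scaled levels of −1.98 and −2.29. The difference was −0.32, or 1.24-fold lower, with an SD from spots of 0.16. It lay above 14.8% of all measured genes and above 20.8% of the 1000 genes nearest in signal. The 2 coactivators thus differed in direction after scaling, while before it both were brighter with IR-61. Their differences were 1.12 apart on the log2 scale, a 2.17-fold divergence, with an SD from spots of 0.30. Across the 10 ways of processing that give a difference per gene, the gap lay between 0.91 and 1.12, and those that only rescale an array cannot change it.

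Nuclear respiratory factor 1 is a transcription factor of respiratory chain genes and of the *Tfam* promoter, and is not to be confused with NRF2 of the antioxidant response. The brightest *Nrf1* probe gave 1182 with vehicle and 1326 with IR-61. The scaled levels were −0.10 and −0.42, a difference of −0.32 or 1.25-fold lower with an SD from spots of 0.095. It lay above 14.5% of all measured genes and above 20.8% of the 1000 genes nearest in signal. The second probe gave 160 and 116, a difference of −0.96 or 1.95-fold lower, and the third gave 51.9 and 54.4, a difference of −0.42. Their SDs from spots were 0.28 and 0.36. All 3 probes were thus lower with IR-61 after scaling, by different amounts.

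ERRα is an orphan nuclear receptor that works with PGC-1 coactivators on genes of oxidative phosphorylation. *Esrra* gave a signal of 11760 with vehicle and of 20573 with IR-61. The scaled levels were 3.22 and 3.54, a difference of 0.32 or 1.25-fold, with an SD from spots of 0.093. It lay above 73.5% of all measured genes. *Nrf1* and *Esrra*, both partners of PGC-1 coactivators, moved apart by 0.64 (SD from spots 0.13).

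TFAM packages mitochondrial DNA and bends its promoters. The brightest *Tfam* probe gave 2931 with vehicle and 3718 with IR-61, and the second gave 2536 and 3450. After scaling these were differences of −0.15 and −0.04, each with an SD from spots of 0.095. That of the brightest probe lay above 25.7% of all measured genes and above 29.2% of the 1000 nearest in signal. The third probe, dim at 87.4 and 75.7, gave −0.70, or 1.62-fold lower, with an SD from spots of 0.28. The 2 bright probes of *Tfam* thus lay within the error given by the software, while the dim one lay outside it.

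Over all probes, 9.12% were higher and 6.52% lower by 1.5-fold or more. Of the 14 measured probes of the regulators 3 were higher by as much, 1 each of *Sirt1*, *Ppargc1a* and *Tfb2m*. The second probe of *Nrf1* and the third probe of *Tfam* were lower by as much. The differences of the 3 *Nrf1* probes spanned 0.64 and those of the 3 *Tfam* probes 0.65. Among the 571 genes with 3 measured probes, the median span was 0.56, and 43.4% spanned at least as much as *Nrf1* and 42.6% at least as much as *Tfam*. The median difference over all probes varied from −0.01 to 0.13 between levels of signal, with no lower value among dim probes.

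**Figure D3:**
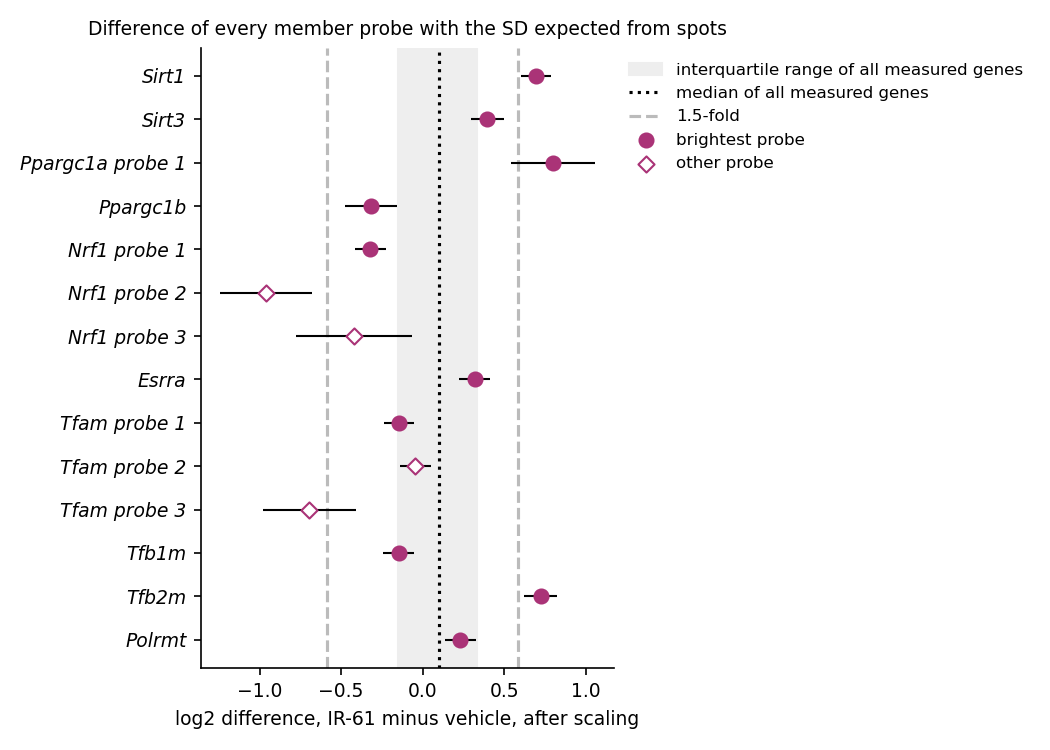
Log2 difference between IR-61 and vehicle after scaling for the 14 measured probes of the 10 regulators, with bars for 1 SD expected from the spread between spots within an array. Filled circles are the brightest probe of each gene and open diamonds the others, the dotted line and the grey band are the median and the interquartile range of all measured genes (−0.15 to 0.34), and the second *Nrf1* probe (−0.96) and the third *Tfam* probe (−0.70) lie below the 1.5-fold line.

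TFB1M and TFB2M descend from rRNA methyltransferases. TFB1M modifies the small ribosomal RNA of mitochondria, and TFB2M melts the promoter for POLRMT. *Tfb2m* gave a signal of 3391 with vehicle and of 7858 with IR-61, with scaled levels of 1.42 and 2.15. The difference was 0.72, or 1.65-fold, with an SD from spots of 0.10, and it lay above 94.4% of all measured genes.

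*Tfb1m* gave 1667 with vehicle and 2115 with IR-61, with scaled levels of 0.40 and 0.26. The difference of −0.15, or 1.11-fold lower, had an SD from spots of 0.095. The paralogs were thus 0.87 apart on the log2 scale, a 1.83-fold divergence, with an SD from spots of 0.14. This gap ran from 0.77 to 0.87 across the 10 ways of processing, most of which cannot change it. Only quantile normalization (0.85), the deposited log2 values (0.85) and normexp background correction (0.77) moved it.

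POLRMT is the single-subunit RNA polymerase of mitochondria. *Polrmt* gave 2291 with vehicle and 3770 with IR-61, with scaled levels of 0.86 and 1.09. It was higher by 0.23, or 1.17-fold, with an SD from spots of 0.095. Measured from the median of all genes the difference was 0.13, and it lay above 65.0% of all measured genes. *Polrmt* was the regulator whose distance from that median was within 2 SDs from spots. The gap between *Polrmt* and *Tfam*, its partner at the promoter, was 0.38 with an SD from spots of 0.13. By the software error, the SD was 0.20 for each of these 2 differences alone.

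The signs of the 4 lower genes rested on the scaling. Without scaling between the arrays, *Ppargc1b* and *Nrf1* were higher by 0.17 and *Tfam* and *Tfb1m* by 0.34, while the median of all measured genes moved from 0.10 to 0.59. A scaling or centring shifts all genes alike and cannot move a gene relative to the median of all genes. Of the 10 ways of processing, those that can are quantile normalization, the deposited log2 values, normexp, the mean over probes and, by very little, keeping outlier spots. Under each of these too the 4 genes lay below that median and the other 6 above it. *Tfb1m* came closest to that median, at −0.0034 from it with normexp background correction. *Sirt1* and *Tfb2m* were higher by 1.5-fold or more under all 10 and *Ppargc1a* under 9, with a log2 difference of 0.53 under normexp. Relative to the median of all genes, *Sirt1* ranged from 0.57 to 0.68, on either side of the 1.5-fold limit, which is 0.58 on the log2 scale.

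**Figure D4:**
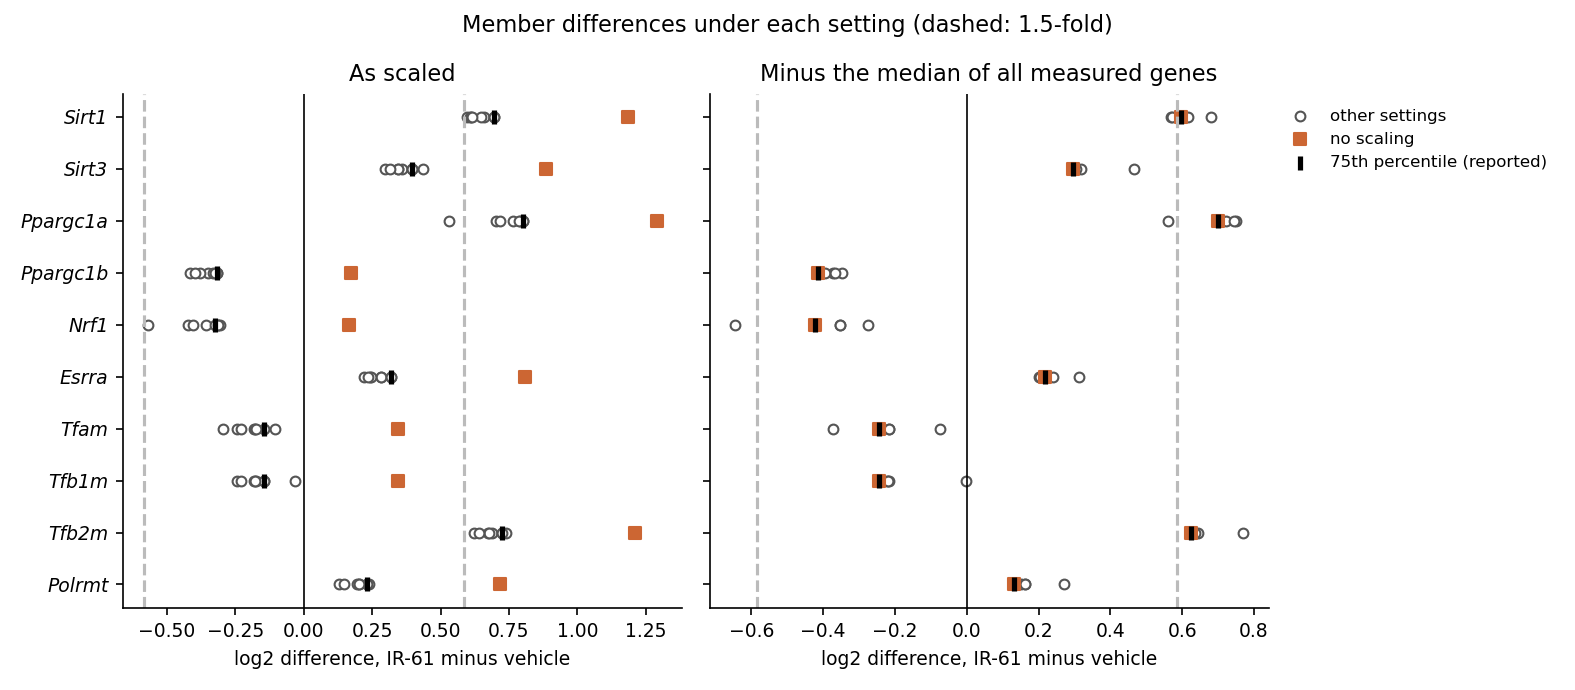
Log2 difference between IR-61 and vehicle of the 10 regulators under each way of processing, as scaled (left) and minus the median of all measured genes (right). Black bars are the values reported after 75th percentile scaling, orange squares those without scaling, open circles the other settings and dashed lines 1.5-fold. On the right, where settings that shift all genes alike coincide, *Ppargc1b*, *Nrf1*, *Tfam* and *Tfb1m* are below 0 and the other 6 genes above it.

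The other genes of the pathway were read from 8 lists of 115 genes in all, of which 111 were measured. Of these 9 (8.11%) were higher and 4 (3.6%) lower by 1.5-fold or more, against 9.79% and 5.69% of all measured genes. None of the 111 passed 2-fold, which 1.99% of all measured genes passed upward and 1.39% downward. Their median log2 difference was 0.12, and 61 lay above and 50 below the median of all measured genes.

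Among the coactivators and repressors, 12 of 13 were measured, with a median of 0.33, and 10 of the 12 lay above the median of all genes. *Ncoa3* and *Ncoa2*, steroid receptor coactivators, were higher by 0.85 and 0.63. *Nrip1*, which encodes the corepressor RIP140 and opposes PGC-1α at oxidative genes, was at −0.81. *Perm1*, a muscle partner of PGC-1, was not well above background on either array.

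Of the nuclear factors of respiratory genes, 18 of 19 were measured, their median was 0.05, and 8 lay above and 10 below the median of all genes. *Pparg*, a nuclear receptor that PGC-1 coactivators bind, was higher by 0.67, and *Atf2*, a factor that drives *Ppargc1a* after stress signals, by 0.60. *Myc*, which drives growth and mitochondrial genes, was at −0.88, the lowest value of all lists. *Esrrg*, the relative of *Esrra* in oxidative muscle, was not well above background on either array.

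The kinases and enzymes of NAD supply, which act above SIRT1 and PGC-1α, were all measured, 13 of 13, with a median of 0.13 and 7 genes above the median of all genes. *Nmnat3*, a mitochondrial NAD synthase, was at 0.70 and *Prkab2*, a subunit of AMP kinase, at −0.65. The other 5 sirtuins stayed within 1.5-fold, a limit that 9.79% of all measured genes passed upward and 5.69% downward. They ran from −0.33 for the cytosolic *Sirt2* to 0.47 for the mitochondrial *Sirt5*, with a median of 0.08. Of the 5 sirtuins 2 lay above the median of all genes.

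For mitochondrial transcription and RNA, 23 of 24 genes were measured, with a median of 0.14. Of these 14 lay above the median of all genes. By 1.5-fold or more 2 (8.7%) were higher and 0 lower, against 9.79% and 5.69% of all measured genes. The termination factor gene *Mterf2* was at 0.72 on a dim probe with an SD from spots of 0.31, *Fastkd3*, of a family of mitochondrial RNA-binding proteins, was at 0.59, and the elongation factor gene *Tefm* was at −0.53. In replication and repair, 14 of 15 genes were measured with a median of 0.10, of which 7 lay above and 7 below the median of all genes. None of the 14 passed 1.5-fold, against 9.79% of all measured genes upward and 5.69% downward. The values ran from −0.56 for *Rnaseh1*, which removes RNA from hybrids with DNA, to 0.51 for *Mgme1*, an exonuclease of mitochondrial DNA.

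The 9 genes of nucleotide supply had a median of −0.05, with 4 above and 5 below the median of all genes. Of the 9 genes 2 (22.2%) were higher by 1.5-fold or more, against 9.79% of all measured genes. Among them *Slc25a36*, a pyrimidine carrier, and *Samhd1*, a dNTP hydrolase, were at 0.68 and 0.61, and *Tk2*, the mitochondrial thymidine kinase, at −0.53. The 18 known targets outside the respiratory chain had a median of 0.10, with 9 above and 9 below that of all measured genes. They ran from −0.62 for *Alas1*, the first enzyme of heme synthesis and an early known target of NRF1, to 0.45 for *Vdac1*, a channel of the outer membrane. Of the 8 genes named from these lists for a lower level, 7 were also dimmer before scaling, and *Sirt2* was brighter, by 0.15. The scaling took the same amount off every log2 difference, so this follows from the size of each fall and is no separate support.

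**Figure D5:**
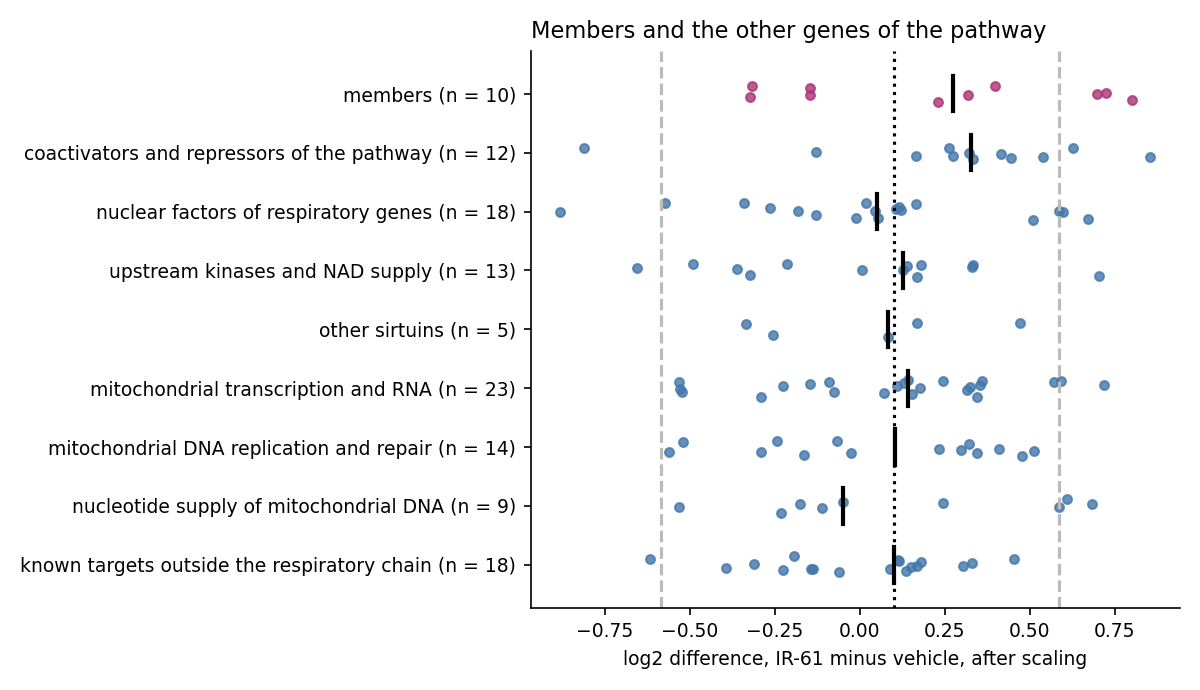
Log2 difference between IR-61 and vehicle after scaling for each measured gene of the 10 regulators (top) and of the 8 lists of other pathway genes, with the number measured in brackets. Short black bars are the medians, from −0.05 for nucleotide supply to 0.33 for coactivators and repressors, the dotted line is the median of all measured genes (0.10) and the dashed lines mark 1.5-fold; points are spread vertically only for legibility.

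The labelled cell type was checked on both arrays. All 9 macrophage markers with a named probe were well above background, from 1002 to 101199 with vehicle and from 790 to 149992 with IR-61. Of 29 markers of other cell types 24 were also above background on each array, and *Cd3g*, *Epcam*, *Cdh1*, *Ucp1* and *Cidea* were not on either. The highest signal with vehicle and with IR-61, before scaling, was 27147 and 58670 among fibroblast markers, 7009 and 11056 among neutrophil markers and 3492 and 9052 among T cell markers. It was 353 and 248 among B cell markers, 218 and 214 among epithelial markers and 111 and 195 among markers of muscle and brown fat. Their part in the results was not tested. On the vehicle array 77.6% of all probes passed the background limit, on the IR-61 array 81.2% did, and no spot was saturated.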

How the data were processed

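Gene expression was measured in 1 vehicle-treated and 1 IR-61-treated culture of RAW264.7 cells, 1 Agilent array each, both on the same slide. The authors deposited the intensity of each spot, background-subtracted and detrended by Agilent Feature Extraction without scaling between arrays. The file header names version 11.0.1.1 and the processing notes of the submitters name 11.0.0.1. The authors also deposited log2 values per probe. How these were normalized is not given in the sources used here, and their 2 columns have the same quartiles.

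Of 44397 spots per array, control spots and the 124 (vehicle) and 139 (IR-61) outlier spots were left out. Log2 intensities were averaged over the spots of a probe, and the 75th percentile of the array (10.30 and 10.79) was subtracted. Of 39419 probes 27224 were named by matching RefSeq accessions to a GRCm38.p6 gene table, used for names only since the array was designed on another assembly. Each gene took its brightest probe well above background on both arrays, and 5473 genes had several probes. *Fastkd4* and *Exog* had no probe named this way. The spread between spots came from probes with at least 5 spots, in bins of signal.

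With 1 array per condition no test was run, and the precision of each value is limited by that number. The genes named are the 10 regulators and, of each list, the largest rise, the largest fall and any gene past 1.5-fold. The members and lists were chosen with earlier results of these data known. The alternatives were scaling by the median, by the 75th percentile of detected probes, by quantiles and none, the deposited log2 values, normexp on the median spot signal with an offset of 50, the mean over probes, outlier spots kept, a 2-fold limit and no filter on dim probes. For normexp, 4 spots on the IR-61 array whose local background exceeded their signal received the median background. Centring on the median of all genes was added after seeing the data. The steps were tested on simulated data. Computations used limma 3.58.1 in R 4.3.3 for normexp, and numpy 2.4.6, pandas 2.3.3 and matplotlib 3.10.9 in Python 3.11.15 for the rest.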

Additional observations from a re-analysis of the deposited data

How the results depend on the processing

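With 1 array per condition, no setting speaks to the variation between cultures, and dim probes such as that of *Ppargc1a* carry the widest spread between spots. No paired analysis was possible because vehicle and IR-61 are represented by a single array each. The count of regulators higher by 1.5-fold or more was 3 of 10 under the scaling by the 75th percentile, beside 9.79% of all measured genes. Without scaling it was 6 of 10, and 8519 of the 16885 measured genes were higher by as much. At a limit of 2-fold it was 0, beside 1.99% of all measured genes. It was 2 with normexp, where 865 of 16882 measured genes were higher by as much and *Ppargc1a* was at 0.53. None was lower by 1.5-fold or more under any setting run, beside 5.69% of all measured genes under the scaling by the 75th percentile. The median of the regulators moved from 0.27 to 0.76 without scaling and to 0.17 when centred on the median of all genes, a setting added after seeing the data. Among all measured genes, 1653 were higher and 960 lower by 1.5-fold or more, so that 63.3% of those past the limit were higher. Scaling by the median gave 1183 and 1278 (48.1% higher), quantile normalization 1304 and 1156 (53.0%), the deposited log2 values 1316 and 1158 (53.2%), centring 1105 and 1360 (44.8%) and no scaling 8519 and 193 (97.8%). At a limit of 2-fold 336 were higher and 235 lower, 2782 were higher with no filter on dim probes, and 865 were higher with normexp. The mean over the probes of a gene gave −0.57 for *Nrf1* and −0.30 for *Tfam*. Each regulator had a log2 difference of the reported sign under every setting that scaled or normalized the arrays, including *Tfb1m* at −0.03 with normexp.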
